A study of Mus musculus with 9 samples.

Results

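A set of 36 genes encodes the machinery by which a nascent secretory protein is brought to the endoplasmic reticulum (ER), threaded through its membrane, freed of its signal peptide and given its first N-linked glycans. Members were found by their current or former gene symbol among array probe sets annotated to that gene alone. Of the 36 genes, 35 had such a probe set, among 18193 genes with one on the array. *Sec61g*, the small gamma subunit of the translocon, is measured here by 1 probe set that it shares with the predicted genes *Gm11575* and *Gm10177*, and no value is given for it. Where a gene had several probe sets, which was so for 26 of the 35, it was read from the brightest, and all 35 were bright enough to be tested.

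Signals come from 9 Affymetrix arrays, each of RNA from the distal and the proximal large intestine of 1 mouse aged 8 wk. The authors extracted the RNA of these 2 segments separately and pooled equal amounts of each. The 3 groups of 3 mice were wild-type C57BL/6, *Winnie* and *Eeyore*. *Winnie* mice are C57BL/6 and carry an ENU-induced missense mutation that replaces a cysteine by a tyrosine in an N-terminal D-domain of *Muc2*, the main secreted mucin of the goblet cell. *Eeyore* mice are of a mixed C57BL/6, NOD-SCID strain and carry another ENU-induced missense mutation, which replaces a serine by a proline in a C-terminal D-domain of the same mucin, so that mutation and strain background cannot be told apart in *Eeyore*. Each strain derives from 1 mutagenized founder line, and each mutant strain was read against the same 3 wild-type mice, so that the 2 comparisons with wild-type are not independent.

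All 9 mice are labelled male, but the 3 wild-type arrays went against that label. *Xist*, the RNA of the inactive X chromosome, averaged 7849 ± 448 (SD, n = 3 mice) in the wild-type arrays but 38.4 ± 26.8 in those of *Winnie* and 83.9 ± 21.2 in those of *Eeyore*, whereas Y-linked *Eif2s3y* averaged 17.6 ± 11.1, 1291 ± 196 and 1259.7 ± 63.7. A difference between the sexes and an effect of the *Muc2* mutations therefore cannot be told apart wherever a mutant strain is set against wild-type, which holds for every such result below and most directly for the X-linked members *Ssr4* and *Magt1*. The comparison of *Eeyore* with *Winnie* is free of this. Median signals per array ran from 118 to 129 in wild-type mice, from 87.9 to 95.2 in *Winnie* and from 95.5 to 99.3 in *Eeyore*, and the group means of the members, 706 to 14968, lay far above these. Epithelial and smooth muscle markers of the gut wall were both bright, as in *Krt8* (52098 ± 3275 in wild-type) and *Acta2* (41950.0 ± 1583), so that the labelled tissue held its defining transcripts.

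In secretory cells the signal recognition particle (SRP) binds a signal sequence as it leaves the ribosome and docks on its receptor at the ER, where the Sec61 channel takes the chain across the membrane. Signal peptidase then cuts off the signal peptide, while the oligosaccharyltransferase moves a preassembled sugar from a dolichol carrier to asparagines of the chain. Trimming of the glucoses of that sugar and binding by calnexin govern how long a glycoprotein is held for folding. Goblet cells, which make very large amounts of a single cysteine-rich and heavily glycosylated mucin, and plasma cells, which make immunoglobulin, depend on this machinery.

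In both mutant strains many of these genes had more transcript than in wild-type mice, and the rises were moderate. In limma's test, with Benjamini-Hochberg adjustment over all 22519 probe sets tested and a threshold of 0.05, 15 members passed as higher and 1 as lower in *Winnie* mice. In *Eeyore* mice 17 passed as higher and 1 as lower. Over all 11453 genes tested, the shares that passed were 11.3% upward and 11.9% downward in *Winnie*, against 14% upward and 16.6% downward in *Eeyore*. The members are bright, and these shares are larger among bright genes. With only probe sets above the 75th percentile tested, 1283 of 6948 genes were higher and 932 lower in *Winnie*. In *Eeyore* 1483 were higher and 1180 lower. The median difference of the 35 members from wild-type was 0.30 on the log2 scale in each strain, against -0.05 and -0.04 over all genes tested. Over the genes above the 75th percentile the medians were 0.04 and 0.05. Among members that passed as higher, the rise ran from 1.29-fold to 1.76-fold in the first strain and from 1.23-fold to 1.97-fold in the second. The signals of the 3 *Winnie* mice lay wholly above those of the 3 wild-type mice for 16 members and wholly below for 1, and those of the *Eeyore* mice for 23 and 1. Over all genes tested, 19.7% lay wholly above and 24.3% wholly below in *Winnie*, and 20.7% and 25.3% in *Eeyore*. In bulk tissue, a change in the number of cells that express a gene and a change in RNA per cell cannot be told apart.

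The counts depend on how arrays are scaled to each other. With each array centred on its median, which raised the median difference of all genes by 0.41 in *Winnie* and 0.33 in *Eeyore*, 34 and 30 members were higher and none was lower, whereas with quantile normalization 14 and 14 were higher and 1 and 2 lower. Relative to the median over all genes, the median of the members was 0.347 and 0.346 above with the deposited scaling and with centring, and 0.159 and 0.164 above with quantile normalization.

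**Figure D1:**
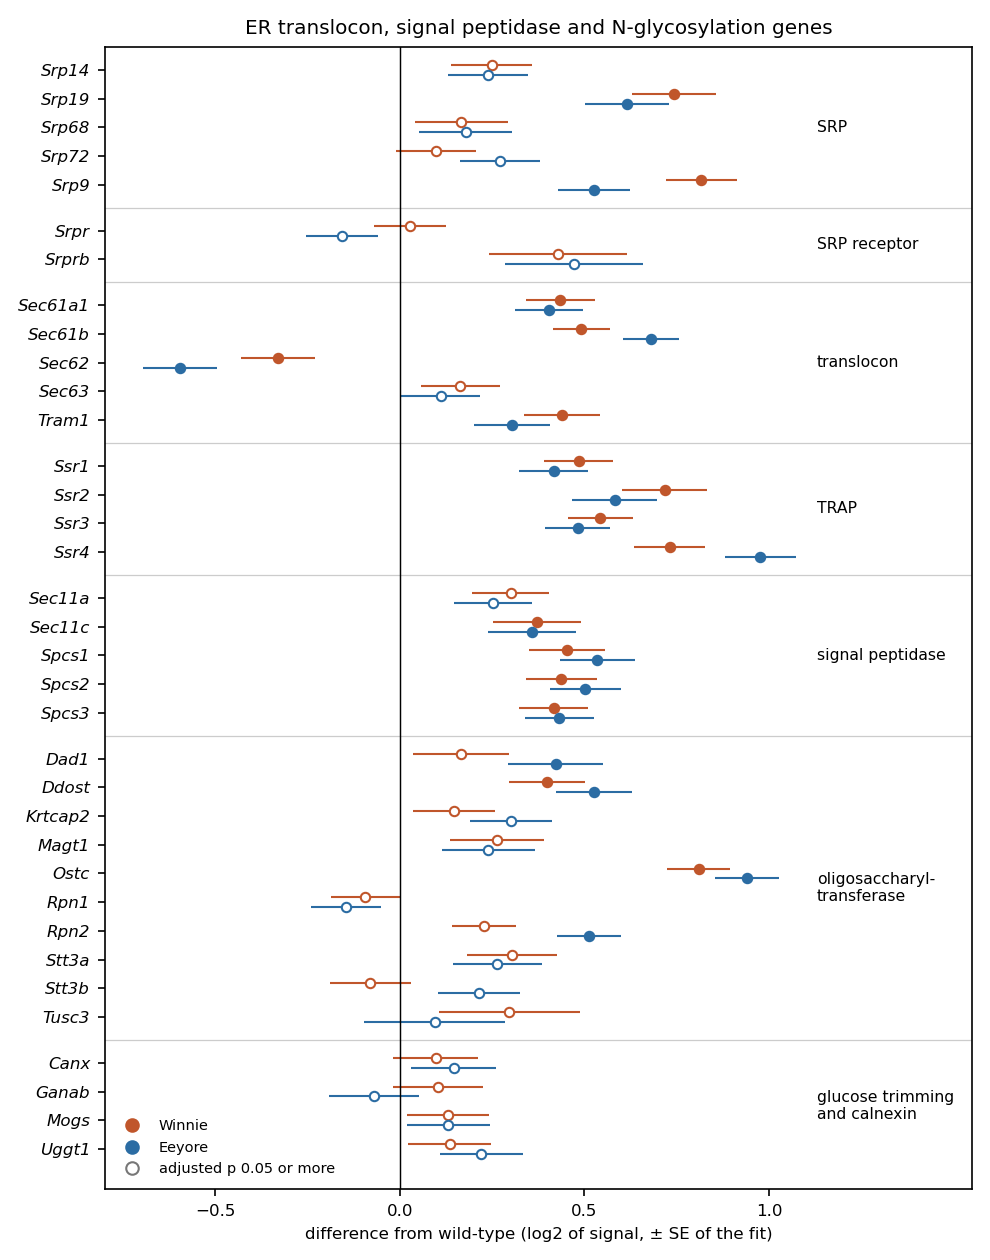
Difference of each of the 35 genes from wild-type on the log2 scale (horizontal axis) in *Winnie* and *Eeyore* mice, with the SE of the fit, grouped by role from top to bottom in the order of the pathway. Filled points passed an adjusted p of 0.05. All 4 TRAP genes and 4 of 5 signal peptidase genes were higher in each strain, none of the 4 glucose trimming and calnexin genes passed, and *Sec62* was the member that passed as lower on this scaling. With median centring *Sec62* passed in neither strain and stood at 0.08 in *Winnie*. Its call in *Winnie* was lost in 8 of 20 alternatives, centring among them.

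The 250 bases upstream of the RefSeq start (GRCm38.p6) are shown for 5 members, 3 of which rose in both strains and 2 of which did not pass on their brightest probe set. They are shown because genes of this pathway are known targets of the unfolded protein response, whose factors XBP1 and ATF6 bind related elements. The 5 were picked from member stretches that hold a match to such an element. The stretches of *Krtcap2* and *Srprb* hold a match too but are not shown, and neither gene passed on its brightest probe set. The stretches are chr13:37994209-37994458 for *Ssr1*, chr3:65392554-65392803 for *Ssr3*, chr14:31001667-31001916 for *Spcs1*, chr10:42761246-42761495 for *Sec63* and chr11:50325674-50325923 for *Canx*, on the plus strand for *Sec63* and on the minus strand for the others, and all are written 5′ to 3′ along the gene. Capitals mark ACGTGG, read here as its reverse complement CCACGT, in the first 4 and both ends of the ER stress response element in *Canx*.
Ssr1: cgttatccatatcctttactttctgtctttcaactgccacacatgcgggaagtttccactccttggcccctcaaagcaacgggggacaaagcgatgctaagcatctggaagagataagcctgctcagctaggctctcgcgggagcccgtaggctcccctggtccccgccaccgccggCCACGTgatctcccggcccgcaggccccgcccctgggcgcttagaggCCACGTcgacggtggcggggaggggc
Ssr3: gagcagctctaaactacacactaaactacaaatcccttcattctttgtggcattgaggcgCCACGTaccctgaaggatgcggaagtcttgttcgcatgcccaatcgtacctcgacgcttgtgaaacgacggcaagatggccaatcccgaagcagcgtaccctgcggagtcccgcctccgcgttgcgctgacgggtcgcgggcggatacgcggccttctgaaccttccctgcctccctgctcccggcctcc
Spcs1: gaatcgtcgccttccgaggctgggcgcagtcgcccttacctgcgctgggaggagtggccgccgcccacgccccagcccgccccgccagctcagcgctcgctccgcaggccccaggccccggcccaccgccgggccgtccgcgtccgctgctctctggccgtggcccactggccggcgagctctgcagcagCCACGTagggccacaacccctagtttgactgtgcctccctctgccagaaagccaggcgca
Sec63: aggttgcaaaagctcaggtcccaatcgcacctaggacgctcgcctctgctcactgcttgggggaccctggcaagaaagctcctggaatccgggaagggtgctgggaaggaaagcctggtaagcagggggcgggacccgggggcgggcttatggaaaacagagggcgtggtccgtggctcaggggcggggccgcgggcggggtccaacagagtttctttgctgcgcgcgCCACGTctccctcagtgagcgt
Canx: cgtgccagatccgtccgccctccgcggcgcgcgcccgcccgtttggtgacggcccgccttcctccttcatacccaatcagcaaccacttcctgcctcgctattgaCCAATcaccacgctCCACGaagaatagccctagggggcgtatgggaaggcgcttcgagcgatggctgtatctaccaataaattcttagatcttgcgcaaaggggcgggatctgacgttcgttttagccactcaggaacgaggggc
In *Ssr1* the 2 matches begin 73 and 26 bases before the start. The match of *Ssr3* begins 190.0 bases before it, that of *Spcs1* 60.0 bases before it, that of *Sec63* 22 bases before it and the element of *Canx* 145 bases before it.

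Windows of 300 bases, from 250 before to 50 after a start, were searched on both strands, and RefSeq windows were found for 27 of the 36 members (29 windows, as some genes have more than 1 start). The core ACGTGG lay in 8 of the 29 (27.6%), against 8.3% of all 32817 windows. Members that were higher in both strains held it in 3 of 8 windows (*Ssr1*, *Ssr3* and *Spcs1*), and the other members in 5 of 21, those of *Ganab*, *Krtcap2* (2 windows), *Sec63* and *Srprb*. The 2 windows of *Krtcap2* overlap and hold the same site. By gene, the core lay in 7 of 27 members (25.9%), against 9.39% of all genes with a window. CCACG, the 3′ end of the ER stress response element, overlaps every such core. It lay in 17 of 27 member genes (63%), against 35.5% of all, and in 18 of the 29 windows (62.1%), against 32.8%. The full ER stress response element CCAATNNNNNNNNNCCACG lay in 1 (3.45%), that of *Canx*, against 0.119%, and its second form ATTGGNCCACG in 1, of *Krtcap2* just after the start, against 0.0366%. TGACGTGG, the longer unfolded protein response element, which holds ACGTGG, lay in none of the 29 and in 0.676% of all. *Canx*, with the full element, did not pass in either strain on its brightest probe set, nor did *Krtcap2*, while a second probe set of each passed in *Eeyore* mice. Windows of the other pathway genes read below held the core in 11 of 59 (18.6%) and CCACG in 33 (55.9%). The full element lay in 2 of them (3.39%), and its second form and the longer element in none. These matches are letters in a window and say nothing of binding.

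Of the 5 genes of SRP proteins measured, 2 rose in both strains. This count and those of the role groups below stand beside the shares over all genes tested. These were 11.3% higher and 11.9% lower in *Winnie*, and 14% and 16.6% in *Eeyore*. *Srp9* (chromosome 1), which with Srp14 forms the part of the particle that slows elongation, had signals of 4108, 4385 and 3886 in wild-type mice, 6961, 7387 and 7440.3 in *Winnie* mice and 6375, 6186 and 5294 in *Eeyore* mice. Every mutant mouse lay above every wild-type mouse, and the 3 *Eeyore* mice lay below the 3 *Winnie* mice. The difference from wild-type was 0.82 ± 0.10 (SE) on the log2 scale in *Winnie* (1.76-fold, adjusted p = 0.0003), against 0.53 in *Eeyore* mice (1.44-fold, adjusted p = 0.00215). *Srp19*, which helps to assemble the particle on its RNA, read 2677, 2799 and 3117 in the wild-type mice, against 4143, 5365 and 4922 in *Winnie* and 4687, 4143 and 4332 in *Eeyore*. Here too the groups did not overlap with wild-type, with differences of 0.74 ± 0.11 (adjusted p = 0.00123) and 0.62 (adjusted p = 0.00225), and the mutant strains overlapped.

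The other SRP members did not pass on their brightest probe set. *Srp14* differed by 0.25 and 0.24, although its partner *Srp9* rose, and 2 of its other 3 probe sets passed in *Eeyore* mice at 0.31 and 0.32. The paired proteins Srp68 and Srp72 bind the far end of the particle, and their genes showed differences in *Winnie* of 0.17 and 0.10 and in *Eeyore* of 0.18 and 0.27.

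Neither subunit of the SRP receptor passed on its brightest probe set. *Srpr*, the docking subunit, differed by 0.03 and -0.16. *Srprb*, which anchors it in the membrane, gave signals of 888, 711 and 519 (wild-type), 1001, 839 and 952 (*Winnie*) and 945, 1068 and 865 (*Eeyore*), with a wide spread among the wild-type mice and a difference of 0.43 ± 0.19 and 0.47 ± 0.19. A dimmer probe set of *Srprb* differed in size, with 244, 281 and 229 in wild-type, then 584, 601 and 439 in *Winnie* and 735, 612 and 583 in *Eeyore*. On that probe set the mutant mice lay wholly above wild-type, by 1.10 (adjusted p = 0.00191) and 1.35 (adjusted p = 0.000353), and the remaining one differed by 0.47 and -0.10 without passing.

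Of the 5 translocon genes measured, 3 rose and 1 fell in each strain. *Sec61b*, the beta subunit of the channel, was measured at 9281, 9588 and 9139 in the 3 wild-type mice, at 13400.0, 12239 and 13793 in the *Winnie* mice and at 15227, 14561 and 15117 in the *Eeyore* mice. The 3 groups did not overlap and lay in that order, with differences from wild-type of 0.49 ± 0.08 (1.41-fold, adjusted p = 0.00127) and 0.68 (1.60-fold, adjusted p = 0.000108). *Sec61a1*, the pore itself, had signals of 6505, 6607 and 6982 in wild-type mice, 8967, 8416 and 9819 in *Winnie* mice and 8187, 9685 and 8754 in *Eeyore* mice. It was 0.43 and 0.40 higher (adjusted p = 0.00701 and 0.00715), and 3 of its other 5 probe sets passed as higher in each strain. The dimmest of its probe sets, in contrast, lay below wild-type in all 6 mutant mice, by -0.40 and -0.42, without passing.

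*Tram1*, a membrane protein beside the channel that helps some chains across, read 2979, 3409.6 and 3439.6 in the wild-type mice, against 4083, 4427 and 4817 in *Winnie* and 4302, 3991 and 3821 in *Eeyore*. Its rise of 0.44 ± 0.10 in the first strain (adjusted p = 0.0113) and of 0.30 in the second (adjusted p = 0.0448) was among the least firm, since the call in *Eeyore* was lost in 13 of 20 alternative analyses, among them the omission of any 1 wild-type or *Eeyore* mouse, with adjusted p from 0.0504 to 0.497. In *Winnie* it was lost without wild-type mouse 1 or *Winnie* mouse 3 and with the mean over probe sets, with adjusted p from 0.0514 to 0.696.

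*Sec62* and *Sec63* serve chains that are moved after or late in synthesis, and *Sec62* is also known as a receptor for the turnover of ER by autophagy. *Sec62* went the other way from most members, with signals of 4937, 4355 and 4812 (wild-type), 3901, 3426 and 3889.5 (*Winnie*) and 3292, 3110.3 and 2927 (*Eeyore*). The groups did not overlap, and *Eeyore* mice lay lowest. It fell by 0.33 in *Winnie* (adjusted p = 0.0336) and by 0.60 in *Eeyore* mice (SE 0.10, adjusted p = 0.0012), but with each array centred on its median the difference was 0.08 in *Winnie* and -0.27 in *Eeyore* and passed in neither. In *Winnie* the call was lost in 8 of 20 alternatives. Among them were the omission of wild-type mouse 1 or 3 and of *Winnie* mouse 2 or 3, with adjusted p from 0.0611 to 0.115. *Sec63*, its partner, differed by 0.16 and 0.11 and did not pass.

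The 4 genes of the translocon-associated protein complex (TRAP), which sits beside the channel and aids chains with weak signal sequences, all rose in each strain, with medians of 0.63 in *Winnie* and 0.53 in *Eeyore* mice. *Ssr4*, the delta subunit, gave signals of 5566, 5877 and 6965 (wild-type), 9995, 9994 and 10426 (*Winnie*) and 12775, 11213 and 12131 (*Eeyore*). The *Eeyore* mice lay highest and no groups overlapped, with differences from wild-type of 0.73 ± 0.10 (1.66-fold, adjusted p = 0.000519) and 0.98 (1.97-fold, adjusted p = 4.57e-05). That probe set is of a kind that can match several transcripts, and the gene is X-linked. Read from its other tested probe set, with signals of 42.4 to 268.4 over the 9 arrays, *Ssr4* differed by 0.67 and -0.03, with adjusted p of 0.502 and 0.978.

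*Ssr2*, the beta subunit, was measured at 2053, 2006 and 2336 in the 3 wild-type mice, at 3148, 3792 and 3581 in the *Winnie* mice and at 2931, 3137 and 3506 in the *Eeyore* mice. It was measured by a single probe set and stood 0.72 ± 0.11 and 0.58 above wild-type (adjusted p = 0.00151 and 0.00316). *Ssr3*, the gamma subunit, had signals of 5942, 6309 and 6432 in wild-type mice, 8292, 9599 and 9375 in *Winnie* mice and 8773, 8155 and 9174 in *Eeyore* mice. All 6 mutant mice were above wild-type on this probe set, by 0.54 and 0.48 (adjusted p = 0.00171 and 0.0022), and on a second one by 1.02 and 0.63, both of which passed. *Ssr1*, the alpha subunit, whose upstream stretch above holds 2 cores, read 4095, 4564 and 4128 in the wild-type mice, against 5692, 6005 and 6188 in *Winnie* and 5456, 5405 and 6223 in *Eeyore*. It rose by 0.49 (adjusted p = 0.00419) and 0.42 (adjusted p = 0.00636), a second probe set also passed in both strains, and another, dim one fell in *Eeyore* mice from 344 ± 31.6 to 203 ± 18.3 (log2 difference -0.76, adjusted p = 0.0217). Averaged over its probe sets, *Ssr1* stood at 0.27 and 0.08 and passed in neither strain (adjusted p = 0.173 and 0.678).

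The signal peptidase genes lay in a narrow range. Of 5 genes, 4 rose in each strain, and the 5 spanned 0.30 to 0.45 in *Winnie* and 0.25 to 0.54 in *Eeyore* mice. *Spcs1*, a small accessory subunit, gave signals of 10931, 10814 and 9149.5 (wild-type), 13874, 15486 and 12914 (*Winnie*) and 15355, 15884 and 13498 (*Eeyore*). *Spcs2*, another accessory subunit, was measured at 2639.5, 2741 and 2879 in the 3 wild-type mice, at 3737, 3859.6 and 3584 in the *Winnie* mice and at 3595, 4222 and 3903 in the *Eeyore* mice. For both genes every mutant mouse exceeded every wild-type mouse while the mutant strains overlapped.

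The differences from wild-type were 0.45 ± 0.10 and 0.54 for *Spcs1* (adjusted p = 0.00929 and 0.00266), and a second, dimmer probe set of the gene passed too, although the *Eeyore* call was lost with the mean over probe sets (adjusted p = 0.0853) and the *Winnie* call without the intensity trend of the variances (adjusted p = 0.0519). Those of *Spcs2* were 0.44 ± 0.10 and 0.50 (adjusted p = 0.00844 and 0.00277), with both its probe sets passing in each strain. *Spcs3*, a subunit needed for the activity of the enzyme, had signals of 2433, 2606 and 2378 in wild-type mice, 3186, 3291 and 3419 in *Winnie* mice and 3481, 3213 and 3310.0 in *Eeyore* mice, a rise of 0.42 and 0.43 (adjusted p = 0.00883 and 0.00514).

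The catalytic subunit has 2 forms, and they were read less firmly. *Sec11c* read 5638, 5373 and 6168 in the wild-type mice, against 8055, 6053 and 8303 in *Winnie* and 7782, 7262 and 6962 in *Eeyore*, with 1 *Winnie* mouse inside the wild-type range. Its differences of 0.37 ± 0.12 and 0.36 passed narrowly (adjusted p = 0.045 and 0.042), and the calls were lost in 10 alternatives in *Winnie* (adjusted p 0.0555 to 0.814) and 9 in *Eeyore* (0.0542 to 0.864), among them the omission of wild-type mouse 1 or 2, of *Winnie* mouse 1 or 3 and of any *Eeyore* mouse. The other probe set of *Sec11c* went the opposite way in both strains without passing. Averaged over its probe sets, *Sec11c* differed by 0.06 in *Winnie* and 0.04 in *Eeyore*. *Sec11a* gave signals of 3813, 4339 and 3923 (wild-type), 4969, 4719 and 5164 (*Winnie*) and 5252, 4958 and 4209 (*Eeyore*) and, at 0.30 and 0.25, did not pass (adjusted p = 0.0605 and 0.0901).

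**Figure D2:**
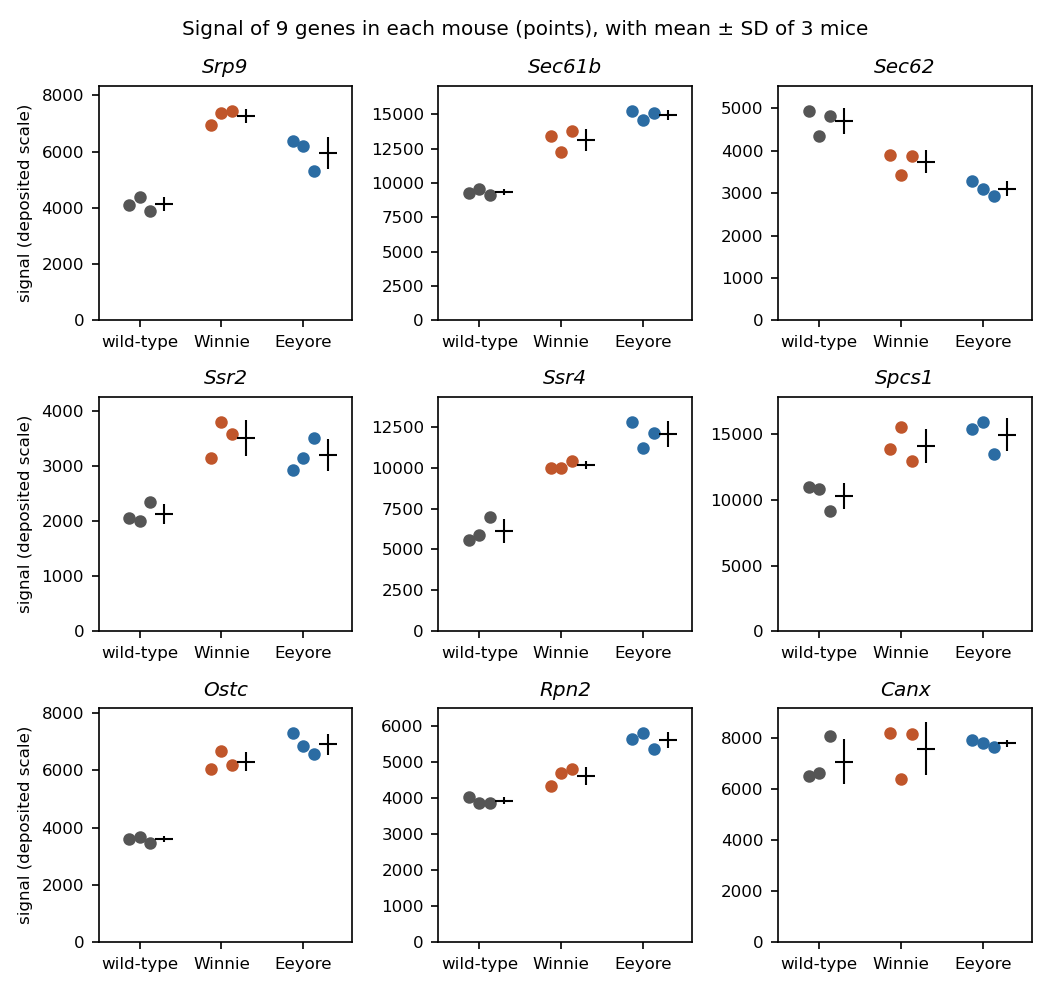
Signal on the deposited linear scale (vertical axis, from 0) of 9 genes in each of the 3 wild-type, 3 *Winnie* and 3 *Eeyore* mice, 1 point per mouse, with the mean and SD of each group in black. *Ostc* rose from a wild-type mean of 3592 ± 109 to means of 6297 ± 326 and 6895 ± 365, *Sec62* fell stepwise on this scaling (with median centring it passed in neither strain), and for *Canx* the groups overlapped.

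The genes of the oligosaccharyltransferase differed widely. Of its 10 genes, *Winnie* mice showed 2 that rose and *Eeyore* mice 4, with medians of 0.25 and 0.28. The shares that rose among all genes tested were 11.3% and 14%. Among genes above the 75th percentile of signal, 1283 and 1483 of 6948 rose, which are larger shares. *Ostc* (chromosome 3), a subunit of the form of the enzyme that works at the translocon, was measured at 3613, 3688 and 3474 in the 3 wild-type mice, at 6044, 6665 and 6182 in the *Winnie* mice and at 7289.6, 6827 and 6568 in the *Eeyore* mice. The mutant mice lay far above the narrow wild-type range, by 0.81 ± 0.09 (1.75-fold, adjusted p = 0.000183) and 0.94 (1.92-fold, adjusted p = 2.69e-05), and the mutant strains overlapped. A second probe set of the gene, with a wild-type mean of 258 ± 60.9 (SD), differed the other way, by -0.30 in *Winnie* and by -0.89 in *Eeyore* mice, where it passed (adjusted p = 0.0424). Averaged over both probe sets, *Ostc* differed by 0.26 and 0.03 and passed in neither strain.

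*Ddost*, an essential subunit of the core of the enzyme, had signals of 1955, 1991 and 2137 in wild-type mice, 2415, 2816 and 2805 in *Winnie* mice and 2851, 2929 and 2971 in *Eeyore* mice. It rose by 0.40 ± 0.10 in *Winnie* (adjusted p = 0.0169), a call lost without wild-type mouse 1 or 2 or without *Winnie* mouse 2 or 3 (adjusted p 0.0535 to 0.0644), and by 0.53 in *Eeyore* mice (adjusted p = 0.00294). *Rpn2*, one of the ribophorins, read 4042, 3865 and 3864 in the wild-type mice, against 4324, 4681 and 4796 in *Winnie* and 5647, 5798 and 5358 in *Eeyore*. The 3 groups stood apart, with differences of 0.23 ± 0.09 (adjusted p = 0.0807) and 0.51 (adjusted p = 0.00128). *Dad1*, a small subunit whose loss is known to cause cell death, gave signals of 4559.8, 4632 and 4989 (wild-type), 5290.1, 6124 and 4587 (*Winnie*) and 5961, 7518 and 5659.8 (*Eeyore*). It rose by 0.42 in *Eeyore* mice (adjusted p = 0.0284) and differed by 0.17 in *Winnie*, and the *Eeyore* call was lost in 6 alternatives, among them the omission of wild-type mouse 1 or 2 or of *Eeyore* mouse 2 (adjusted p 0.0828 to 0.181).

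The catalytic subunits did not pass on their brightest probe sets. *Stt3a*, which glycosylates chains as they emerge from the channel, was measured at 3273, 3541 and 4106 in the 3 wild-type mice, at 4628, 3821 and 5067 in the *Winnie* mice and at 4439.8, 4180.2 and 4439.9 in the *Eeyore* mice and differed by 0.30 and 0.26 (adjusted p = 0.0938 and 0.122). *Stt3b*, which attends to skipped sites, had signals of 13128, 12389 and 11712 in wild-type mice, 13371, 10027 and 12017 in *Winnie* mice and 13102, 15769 and 14388 in *Eeyore* mice. Its groups overlapped, at -0.08 and 0.21, while a dimmer probe set passed in *Eeyore* mice at 0.52 (adjusted p = 0.0203) and differed by 0.28 in *Winnie*.

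*Rpn1*, the other ribophorin, was measured by 6 probe sets, of which the brightest differed by -0.09 and -0.15 and 1 other passed as higher in *Eeyore* mice at 0.41 (adjusted p = 0.0145). *Krtcap2*, a further small subunit, differed by 0.15 and 0.30, and its second probe set passed in *Eeyore* mice at 0.47 (adjusted p = 0.0301). The oxidoreductase subunits *Magt1* and *Tusc3* did not pass, *Magt1* with differences of 0.26 and 0.24 and *Tusc3* with 0.30 and 0.09, the latter with the largest SE among the members (0.19).

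None of the 4 genes of glucose trimming and of the calnexin cycle passed on its brightest probe set, and their differences spanned 0.10 to 0.13 in *Winnie* and -0.07 to 0.22 in *Eeyore* mice. *Canx*, the membrane-bound lectin chaperone, read 6537, 6624 and 8099.6 in the wild-type mice, against 8202, 6404 and 8167 in *Winnie* and 7946, 7797 and 7660.1 in *Eeyore*, and the groups overlapped. A second probe set of *Canx*, dimmer and matched to the gene more narrowly by its suffix, had signals of 806, 890.0 and 1301, 1248, 1530.2 and 1407 and 1513, 1313 and 1399, a difference of 0.51 in *Winnie* (adjusted p = 0.0537) and of 0.52 in *Eeyore* mice, where it passed (adjusted p = 0.0381). *Mogs* and *Ganab*, which encode glucosidase I and the catalytic subunit of glucosidase II, were also near wild-type, at 0.13 and 0.13 for *Mogs* and 0.10 and -0.07 for *Ganab*. *Uggt1*, which puts a glucose back on misfolded glycoproteins, differed by 0.13 and 0.22.

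How far the probe sets of a gene moved together was read from the 86 probe sets of the 35 genes. Besides the brightest of each gene there were 51, of which 43 were bright enough to be tested. Of these 43, 34 had the sign of the brightest probe set in *Winnie* and 30 in *Eeyore* mice. Those that passed in that direction numbered 9 in *Winnie* and 13 in *Eeyore*. In the opposite direction 0 and 3 passed, namely the dim ones of *Ostc* and *Ssr1* and the *Rpn1* probe set above. Of all 22519 probe sets tested, 4834 passed in *Winnie* and 6589 in *Eeyore* mice, upward or downward. The 9 and 13 of 43 that passed in the direction of the brightest lie near these shares, which count both directions.

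**Figure D3:**
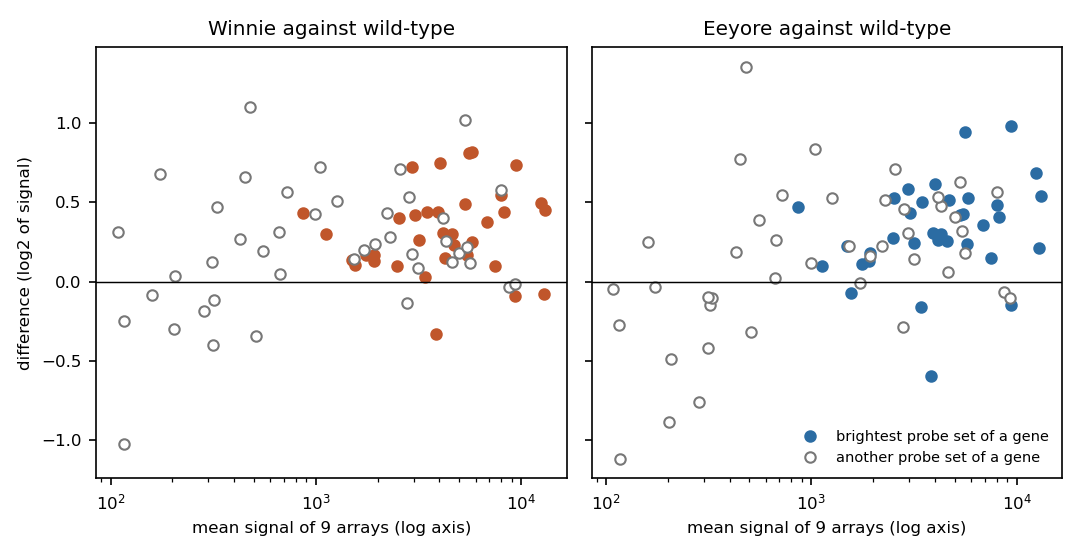
Difference from wild-type on the log2 scale (vertical axis) against the mean signal of the 9 arrays (horizontal axis, log scale) for every tested probe set of the 35 genes, in *Winnie* (left) and *Eeyore* mice (right). Filled points are the brightest probe set of a gene and open points the other 43. Most bright points lie above 0, and the dim ones scatter to both sides.

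Set directly against each other, the mutant strains gave no member that passed the test. In limma's test 0 of 35 members were higher and 0 lower in *Eeyore* than in *Winnie* mice, the lowest adjusted p being 0.127, and 6 had an unadjusted p under 0.05. Over all genes tested, 1.29% were higher and 1.3% lower. The fitted differences of the members lay between -0.29 and 0.29, with a median of -0.01, and their 95% intervals lay within -0.62 and 0.54. The 6 were *Rpn2* (0.28), *Stt3b* (0.29), *Ssr4* (0.25) and *Sec61b* (0.19), higher in *Eeyore*, and *Srp9* (-0.29) and *Sec62* (-0.26), higher in *Winnie*, and none passed after adjustment. *Eeyore* mice lay wholly above *Winnie* mice for 5 members and wholly below for 4, against 10.2% and 10.7% of all genes tested. Although *Dad1* and *Rpn2* passed against wild-type in *Eeyore* and not in *Winnie* mice, a difference between the strains was thus not shown for either (adjusted p = 0.377 and 0.127).

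For the 3 pairs of related subunits within 1 complex, the change in the ratio of the pair within each array was tested by an exact two-sided permutation over mice, which cannot go below p = 0.1 with 3 mice per group, with 9 tests in all. The log2 ratio of *Stt3b* to *Stt3a* changed by -0.38 in *Winnie* (exact permutation p = 0.2) and by -0.05 in *Eeyore* mice (p = 0.8), and stood 0.33 higher in *Eeyore* than in *Winnie* (p = 0.1). That of *Sec11c* to *Sec11a* changed by 0.07 and 0.11 (p = 0.5 in each) and that of *Magt1* to *Tusc3* by -0.03 (p = 0.9) and 0.14 (p = 0.5), all by exact permutation. With 3 mice per group no pair could have passed 0.05, and after adjustment over the 9 tests the lowest p was 0.75. Read from the mean over probe sets, the ratio of *Sec11c* to *Sec11a* changed by 1.21 in *Winnie* and by 0.49 in *Eeyore*. With the same mean, the ratio of *Stt3b* to *Stt3a* changed by -0.30 in *Eeyore* mice. These means take in a probe set of *Sec11a* and one of *Stt3a* that were too dim to be tested. *Sec11c* alone, read from its mean, differed from wild-type by 0.06 in *Winnie* and 0.04 in *Eeyore*.

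Genes of the same pathway outside the set were read from lists of 69 genes, of which 63 were tested. Of these, *Winnie* mice had 16 that rose and 2 that fell, and *Eeyore* mice 19 that rose and 1 that fell, with medians of 0.20 and 0.18. Among 10 genes of the supply of sugar nucleotides, 4 rose in *Winnie*, while in *Eeyore* 6 rose and 1 fell, shares of 40% and 60% higher, against 11.3% and 14% of all genes tested. *Gmppb*, which makes the GDP-mannose that feeds the dolichol-linked sugar, went from 706 ± 48.1 (SD, n = 3) in wild-type to 1327 ± 241 in *Winnie* and 1718 ± 316 in *Eeyore* mice, differences of 0.90 ± 0.16 (adjusted p = 0.00313) and 1.27 (adjusted p = 0.00026). *Mpi*, which leads into the same route, rose in *Eeyore* mice by 0.59 (adjusted p = 0.00369), and *Pmm1*, a phosphomannomutase, fell there by 0.96 (adjusted p = 0.00949), the 2 differing by 0.32 and -0.55 in *Winnie* without passing.

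Of 22 genes that build the sugar on its dolichol carrier, 4 passed as higher in *Winnie* mice (18.2%) and 3 in *Eeyore* (13.6%, close to the 14% of all genes tested). They were led in size by *Alg13* (0.86 in *Winnie*, adjusted p = 0.038) and *Alg8* (0.69, adjusted p = 0.00597), which add the second N-acetylglucosamine and a glucose and did not pass in *Eeyore* mice (0.72 and 0.36). Among 9 further trimming enzymes and lectins, 1 passed in each direction in *Winnie* mice (11.1%, against 11.3% higher and 11.9% lower over all genes), and 3 rose in *Eeyore* (33.3%). *Mcfd2*, part of a cargo receptor for glycoproteins, rose by 0.58 and 0.74 (adjusted p = 0.00276 and 0.000438), the lectin *Lman2* rose by 0.67 in *Eeyore* mice (adjusted p = 0.00261), and the mannosidase *Man1b1* fell by 0.54 in *Winnie* (adjusted p = 0.0472).

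Of 7 other translocation genes, 3 passed as higher in *Winnie* mice (42.9%) and 2 in *Eeyore* (28.6%), against 11.3% and 14% of all genes tested. *Dnajb9*, a co-chaperone of BiP in the ER, rose by 0.92 and 0.82 (adjusted p = 0.00117 and 0.00138), and *H13*, the signal peptide peptidase that clears cut signal peptides, by 0.48 in *Winnie* (adjusted p = 0.0157). A further 15 genes serve tail-anchored proteins and the ER membrane complex (EMC), the parallel routes into the ER membrane. Of these, *Winnie* mice had 4 that rose (26.7%) and 1 that fell (6.67%, against 11.9% of all genes tested). *Eeyore* mice had 5 that rose (33.3%). The EMC subunit *Emc4* rose by 0.34 and 0.72 (adjusted p = 0.0454 and 0.000697), *Emc8* rose by 0.71 and 0.64 (adjusted p = 0.00968 and 0.0118), and on the deposited scaling *Emc10* fell by 0.42 in *Winnie* (adjusted p = 0.0272).

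The ER chaperones gave a measure of size. *Hspa5*, which encodes BiP and pulls chains through the channel, rose from 14373 ± 1558 in wild-type to 29339 ± 2127 in *Winnie* and 33757 ± 2994 in *Eeyore* mice, by 1.03 ± 0.10 and 1.23. This was more than any of the 35 members read from its brightest probe set in either strain. The dimmer probe set of *Srprb* described above rose by more than *Hspa5* in each strain. *Hsp90b1*, which encodes GRP94, rose by 0.66 and 0.76. *Xbp1*, a transcription factor of this pathway, differed by -0.00 and 0.05 in its total signal, which does not show its splicing.

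Transcripts of other cell types moved in the same mice. Their counts stand beside shares over all genes tested of 11.3% higher and 11.9% lower in *Winnie*, and 14% and 16.6% in *Eeyore*. All 14 smooth muscle markers tested (of 15 listed) fell in each strain, by a median of 1.10 in *Winnie* and 1.53 in *Eeyore* mice, and their summed signal was 204979 to 210205 (wild-type), 94130.0 to 103071 (*Winnie*) and 76704 to 85351 (*Eeyore*). Of 11 epithelial markers, 4 passed as higher in *Winnie* mice and 7 in *Eeyore*, with medians of 0.20 and 0.32 and summed signals of 186418 to 192668 (wild-type), 229710.0 to 237399 (*Winnie*) and 239940.0 to 266167 (*Eeyore*). These medians lie beside the members' own median of 0.30. The 3 brightest epithelial markers were *Krt8* (differences of 0.09 and 0.29), *Krt19* (0.43 and 0.61) and *Krt20* (0.94 and 0.77).

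Plasma cells carry much of this machinery. Of 10 plasma cell markers, 3 passed as higher in *Winnie* mice and 5 in *Eeyore*, with medians of 0.41 and 0.60 and summed signals of 32547 to 40348 (wild-type), 37749 to 45607 (*Winnie*) and 44679 to 55853 (*Eeyore*). The brightest of them, *Jchain*, which joins secreted immunoglobulin, differed by 0.27 in *Winnie* and rose by 0.57 in *Eeyore* mice (adjusted p = 0.0459). *Xbp1* and the proteoglycan *Sdc1*, next in brightness, are also expressed by epithelium, and *Sdc1* rose by 0.51 and 0.55. The plasma cell markers that passed in *Winnie* were *Sdc1*, *Prdm1* (1.36) and *Fkbp11* (1.20). *Jchain* and *Xbp1* did not pass there, nor did *Mzb1* (0.64), *Pou2af1* (0.72), *Derl3* (0.32), *Irf4* (-0.01) and *Tnfrsf17* (-0.56). Among 11 goblet cell markers, in *Winnie* mice 1 passed upward and 4 downward, in *Eeyore* 2 upward and 3 downward, with medians of -0.23 and 0.08 and summed signals of 339536 to 379243 (wild-type), 225801 to 276560.0 (*Winnie*) and 315864 to 372078 (*Eeyore*). *Muc2* itself went from 76999 ± 8135 to 32081 ± 5494 and 35110.0 ± 2271, while the bright goblet cell products *Zg16* (0.01 and 0.18) and *Tff3* (-0.23 and 0.05) did not pass.

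Of 9 leukocyte markers tested (of 10 listed), 0 passed in *Winnie* and 5 rose in *Eeyore* mice, with medians of 0.11 and 0.70 and summed signals of 7238 to 9203 (wild-type), 8150.0 to 11104 (*Winnie*) and 9695 to 17694 (*Eeyore*). The brightest, *Cd52*, *Ptprc* and *Coro1a*, stood at 0.21, 0.07 and -0.16 from wild-type in the first strain, against 0.80, 0.48 and 0.70 in the second. Of 6 markers of enteric neurons and glia tested (of 8 listed), 2 passed as lower in *Winnie* mice and 4 in *Eeyore*, with medians of -1.16 and -1.24 and summed signals of 1285 to 1649 (wild-type), 572 to 849 (*Winnie*) and 425 to 726 (*Eeyore*). The brightest were *Uchl1* (-1.05 and -1.51), *Ret* (-0.47 and -0.97) and *Elavl4* (-1.28 and -1.61). No marker of these lists with a probe set had group means that all lay under 41.1, the top value of the 25th percentile over the arrays. Whether these marker changes come from cell numbers or from RNA per cell cannot be told apart here. Their part in the members' rises was not tested.

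**Figure D4:**
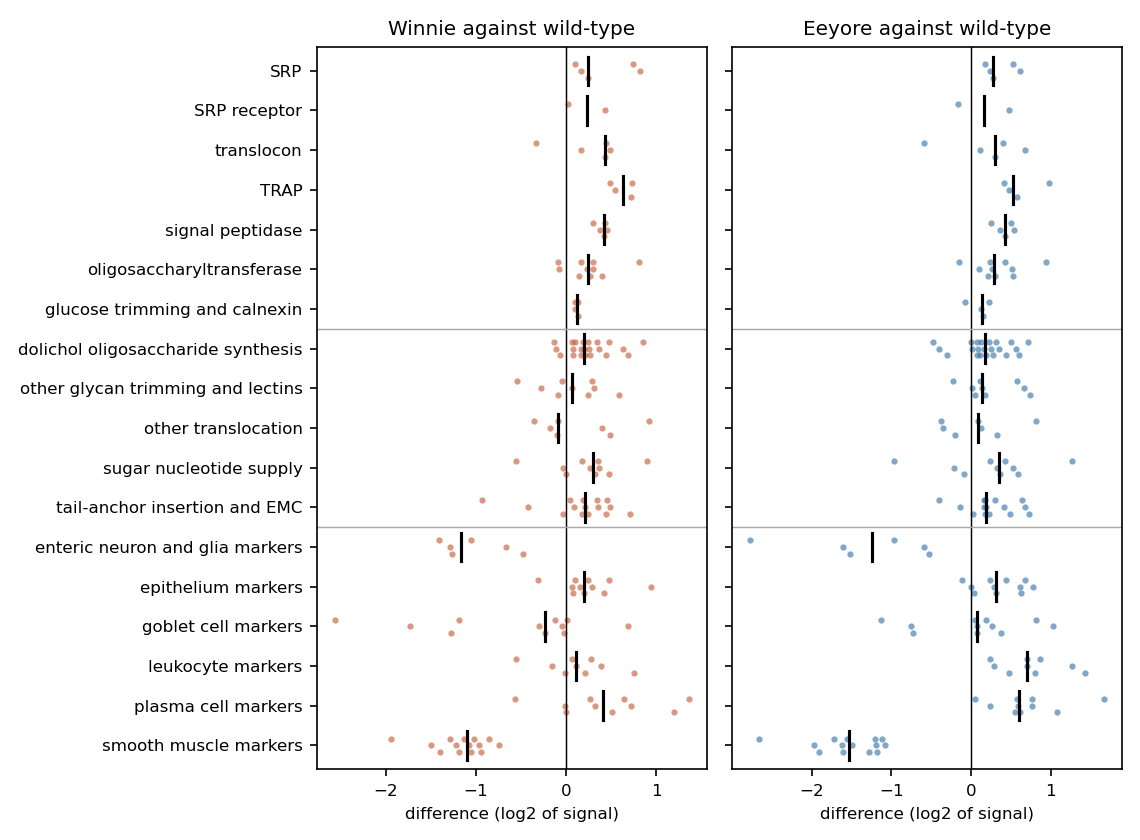
Difference from wild-type on the log2 scale (horizontal axis) of single genes (points) and the median (black line) of each list, in *Winnie* (left) and *Eeyore* mice (right). From top to bottom stand the 7 role groups of the members, 5 lists of other genes of the pathway and 6 lists of cell type markers. The medians of the member groups lie between 0.12 and 0.63 in *Winnie* and between 0.14 and 0.53 in *Eeyore* mice, while all smooth muscle markers lie below 0.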

How the data were processed

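Large intestinal RNA of 9 mice, 1 array each, was labelled and hybridised to Affymetrix mouse arrays. The authors deposited, for 45101 probe sets per array, intensities on a linear scale whose mean after trimming 2% at each end is 500. The algorithm behind the signals is not given in the sources used here. Of 45037 probe sets that are not controls, 34945 had 1 gene symbol in the platform annotation, 932 had several and 9160.0 had none. Symbols were updated through gene identifiers.

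Log2 signals were used with no other scaling, and the 22519 probe sets whose mean reached the 50th percentile of all (6.43, equal to a signal of 85.9) were tested. All 9 arrays entered 1 linear model in limma 3.58.1 (R 4.3.3), with variances moderated along an intensity trend, and the contrasts set each mutant strain against wild-type and *Eeyore* against *Winnie*. Adjusted p-values are by Benjamini-Hochberg over all probe sets tested, with a threshold of 0.05, and the same SE applies to a gene in all 3 contrasts. A gene was read from its brightest probe set annotated to it alone. The fit was also tested on simulated data. Precision is limited by 3 mice per group, and p-values measure the spread between these mice.

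The members, the lists, the motifs and the tests were chosen with earlier results of these data known. All members with a probe set of their own are named, of each other list the 2 largest rises and 2 largest falls among genes that passed in either strain, of each marker list the 3 brightest genes, and *Hspa5*, *Hsp90b1*, *Muc2*, *Xbp1*, *Xist*, *Eif2s3y* and *Kdm5d* for comparison. The other plasma cell markers are named too, after their values were seen. *Kdm5d*, also Y-linked, averaged signals of 54.7 in wild-type mice and 608 in each mutant strain. Probe sets of a named gene other than the brightest were described after their values were seen. Upstream sequences are RefSeq windows on GRCm38.p6.

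In 20 alternatives 1 choice was changed at a time. Arrays were centred on their medians or quantile-normalized, all probe sets or those above the 75th percentile were tested, 32 was added to each signal before log2, the trend was dropped or variances were fitted robustly, the fit was limited to the groups in a contrast, mouse number entered as a block, a gene was read as the mean of its probe sets, each of the 9 mice was left out, and, added after the values were seen, probe sets with the suffixes that mark matches to several transcripts were left out. Tables were handled and figures drawn with Python 3.11.15, pandas 2.3.3, scipy 1.17.1 and matplotlib 3.10.9.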

Additional observations from a re-analysis of the deposited data

How the results depend on the processing

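Of the members that passed, 8 of 16 in *Winnie* and 10 of 18 in *Eeyore* mice passed under all 20 alternatives. With median centring, 34 members were higher in *Winnie* and 30 in *Eeyore* mice, 0 were lower in either, 4699 genes in all passed in *Winnie* (2659 with the deposited scaling), and 47 and 44 other pathway genes were higher (16 and 19). *Rpn1* then stood at 0.32 (adjusted p = 0.024), *Stt3b* at 0.33 (0.0206) and *Sec62* at 0.0785 (0.595) in *Winnie*, where each had been below 0. This follows from the centring itself, which raised all differences from wild-type. With quantile normalization 2 members were lower in *Eeyore* mice (*Sec62* and *Rpn1*). In *Winnie*, 0 were lower without the filter, without the intensity trend and with the mean over probe sets. The mean over probe sets gave 1601 genes in all for *Winnie*, 2325 for *Eeyore* (3504 in the main analysis) and 173 for *Eeyore* against *Winnie* (297), 10 higher other pathway genes in *Winnie*, and changes in the *Sec11c* to *Sec11a* ratio of 1.21 in *Winnie* (0.0720 in the main analysis), 0.489 in *Eeyore* (0.106) and -0.718 between *Eeyore* and *Winnie* (0.0341), and in the *Stt3b* to *Stt3a* ratio of -0.304 in *Eeyore* (-0.0500) and 0.132 between the strains (0.335). It also ended the calls of *Ostc* (adjusted p = 0.236 and 0.906), *Ssr1* (0.173 and 0.678) and *Ssr4* (0.392 and 0.507) in *Winnie* and *Eeyore* and that of *Spcs1* in *Eeyore* (0.0853), and no intensity trend ended that of *Spcs1* in *Winnie* (0.0519). Without an intensity trend, 147 genes passed between the strains. Without probe sets that can match several transcripts, *Ssr4* stood at -0.0331 in *Eeyore* mice (adjusted p = 0.978). For these settings other than centring, the cause was not tested. The mean over probe sets takes in probe sets too dim to be tested, among them a probe set of *Sec11a* and one of *Stt3a*. Depth is that of signal over background, and all members lay well above the dim range.

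Leaving out 1 mouse at a time gave 12 to 16 higher members in *Winnie* and 14 to 18 in *Eeyore*, 0 to 1 lower in *Winnie* and 1 in *Eeyore*, and 0 in either direction between the strains. Genes in all ran from 1655 (without wild-type mouse 2; 1713 without wild-type mouse 1) to 2836 in *Winnie* and from 174 (without *Winnie* mouse 3; 182 without *Eeyore* mouse 2) to 516 (without *Eeyore* mouse 1) between the strains. Other pathway genes higher in *Winnie* ran from 9 (without *Winnie* mouse 3) to 16. Ratio changes ran from -0.0280 to 0.183 (*Sec11c* to *Sec11a*, *Winnie*), 0.00607 (without wild-type mouse 2) to 0.178 (the same, *Eeyore*), -0.0765 to 0.0924 (the same, *Eeyore* against *Winnie*), -0.181 to 0.0648 (*Stt3b* to *Stt3a*, *Eeyore*), -0.205 to 0.0942 (*Magt1* to *Tusc3*, *Winnie*) and -0.0260 to 0.349 (the same, *Eeyore*). Over 9 pairs of mice with the same number, correlations of their deviations ran from -0.00821 to 0.164, so that the numbers were not taken to pair the mice. With mouse number as a replicate block, 15 members were higher and 1 lower in *Winnie*, 16 and 1 in *Eeyore* mice, where *Tram1* was lost (adjusted p = 0.0563), and 0 between the strains.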
